A study of Bos taurus with 3 samples.

Results

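The genes of hyaluronan synthesis, turnover and binding were examined in BFF116 cells, a culture of bovine fetal fibroblasts used as nuclear donors for somatic cell nuclear transfer. They were chosen by symbol as 10 genes, with earlier results of these data known. The synthase genes were HAS1, HAS2 and HAS3, the hyaluronidase genes HYAL1 and HYAL2, and the receptor genes CD44 and STAB2. The others were VCAN, HAPLN1 and TNFAIP6, which encode secreted binding proteins. All 10 had a row among the 31903 genes of the count table. The series has a single group of 3 replicates, each of 70000 unmodified cells starved of serum for 48 h, and holds no cells grown in serum and no other cell type, so levels were described and no condition was compared. The labels call the replicates biological without naming separate animals or cultures, so p-values measure the spread between these libraries, which may in part be technical.

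Hyaluronan is a long, unsulfated chain of alternating glucuronic acid and N-acetylglucosamine. The synthases build it at the plasma membrane from UDP-sugars of the cytosol and push it out of the cell, where link-domain proteins such as versican, link protein and TSG-6 organize it into a pericellular coat. Cells hold it through CD44, and it is cleared by cleavage at the cell surface, uptake and lysosomal breakdown. Fibroblasts are a classic source of hyaluronan.

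Libraries held 4842331 to 8608350 reads assigned to genes. Levels are in CPM, the reads of a gene divided by the normalized total of its library, and "measured" means a level of at least 1 CPM in each of the 3 libraries. A single read was worth 0.119, 0.202 and 0.141 CPM in replicates 1 to 3. All 10 of 10 fibroblast markers were measured, with summed levels of 101370 to 112444 CPM. In bulk RNA, fewer expressing cells and less RNA per cell cannot be told apart. No transcript lengths were at hand, so levels of different genes are not ranked, and any ratio of 2 genes is a ratio of reads, in which a length difference is the same in every library.

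Of the 10 genes 4 were measured, CD44, TNFAIP6, HYAL1 and HYAL2, against 34.6% of all listed genes. With 10 reads or more in every library as the criterion, 3 of 10 passed, against 32.7% of all listed genes, and HYAL2 was the gene that dropped out. STAB2 and VCAN were listed at 0 in all 3 libraries, as were 43.5% of all listed genes. The 3 synthases and HAPLN1 had reads in every library and fell below 1 CPM in at least 1. The median level over all 10 genes was 1.36 CPM, beside 0.134 CPM over all listed genes and 4.96 CPM over those with a read. The plot of the 10 genes by library shows these levels.

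**Figure D1:**
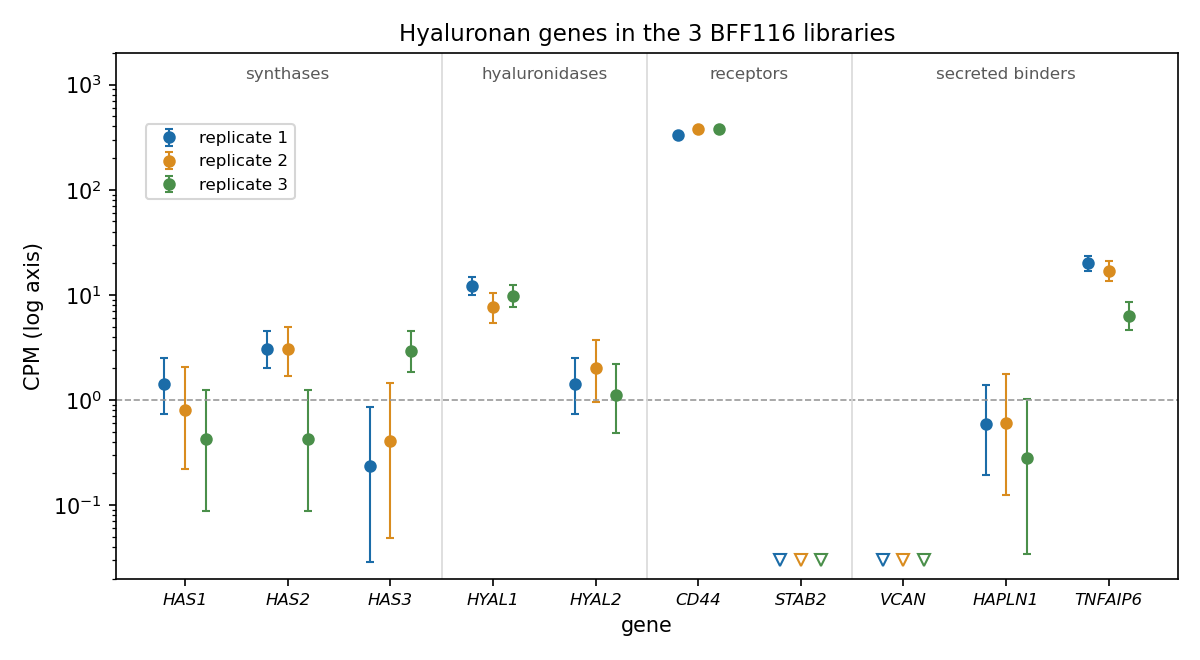
CPM on a log axis for each of the 10 hyaluronan genes (x axis) in each of the 3 libraries (colours), with exact 95% Poisson intervals of the read count, and with open triangles at the foot for libraries with 0 reads. CD44 lay between 329.9 and 382 CPM, TNFAIP6 and HAS2 were lowest in replicate 3, HAS3 was highest there, and STAB2 and VCAN had no read. The dashed line is 1 CPM.

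The synthases were at the edge of detection. HAS2, which encodes the synthase most often linked to fibroblasts and to the embryo, had 26, 15 and 3 reads in replicates 1 to 3, or 3.09, 3.02 and 0.422 CPM. Replicates 1 and 2 were alike and replicate 3 was low, and its exact 95% Poisson interval of 0.0871 to 1.23 CPM did not overlap theirs, which ran from 2.02 to 4.53 CPM and from 1.69 to 4.99 CPM. HAS3, the synthase known for shorter chains, had 2, 2 and 21 reads, or 0.238, 0.403 and 2.95 CPM. Here replicate 3 was the high library, with an interval of 1.83 to 4.52 CPM that lay above those of replicate 1 (0.0288 to 0.858 CPM) and replicate 2 (0.0488 to 1.46 CPM). Without replicate 3 the mean of HAS3 was 0.321 CPM in place of 1.20 CPM, so its mean rests on that library. HAS1, the synthase of lowest activity of the family, had 12, 4 and 3 reads, or 1.43, 0.806 and 0.422 CPM, with intervals that overlapped in all 3 libraries.

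The leading synthase by reads was HAS2 in replicates 1 and 2 and HAS3 in replicate 3. HAS2 supplied 65% of the 40 synthase reads of replicate 1 (exact 95% binomial interval 48.3 to 79.4%) and 71.4% of the 21 of replicate 2 (47.8 to 88.7%), but 11.1% of the 27 of replicate 3 (2.35 to 29.2%). HAS3 supplied 5% in replicate 1 (0.611 to 16.9%), 9.52% in replicate 2 (1.17 to 30.4%) and 77.8% in replicate 3 (57.7 to 91.4%). The reads of HAS2 were thus 13 times those of HAS3 in replicate 1 (3.25 to 113), 7.5 times in replicate 2 (1.74 to 67.6) and 0.143 times in replicate 3 (0.0273 to 0.478). HAS1 was at 30%, 19.0% and 11.1%, with overlapping intervals. These intervals cover counting error only, since PCR copies without molecular identifiers are not independent molecules. HAS3 shares the end of its span with CHTF8 and DERPC in the bovine assembly ARS-UCD2.0, and the strand setting of the counting is not given, so reads there cannot be told apart by gene.

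**Figure D2:**
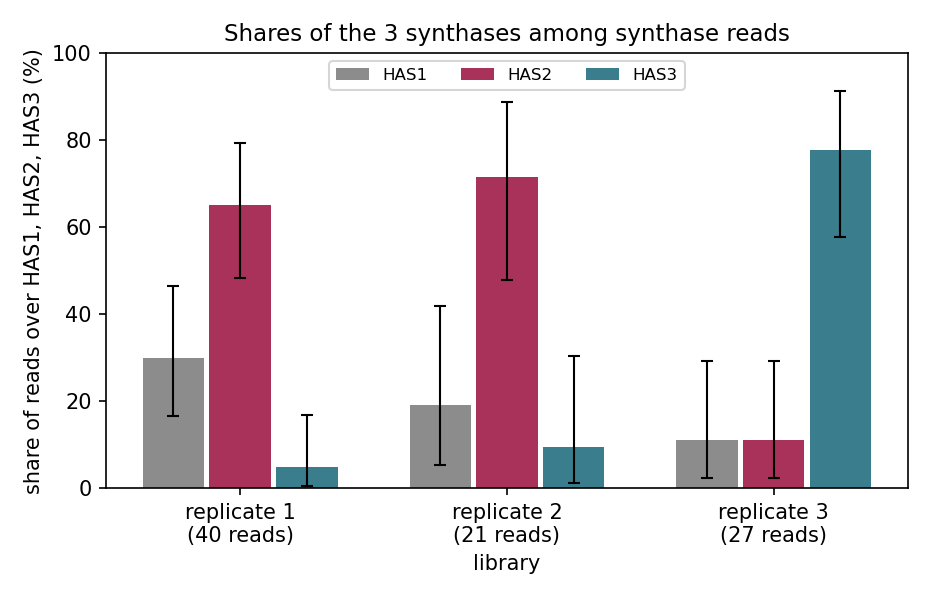
Share of each synthase (bar colours, y axis in percent) among the reads of HAS1, HAS2 and HAS3 in each library (x axis, with its number of synthase reads), with exact 95% binomial intervals as error bars. HAS2 led in replicates 1 and 2, at 65% and 71.4%, and HAS3 led in replicate 3, at 77.8%.

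In the test of spread across all genes, which sets the variation between replicates against the trend at the same level (negative binomial statistic on edgeR dispersions, Benjamini-Hochberg adjusted), the 3 synthases had too few reads for the filter of 10 in every library. Without that filter none passed: the adjusted p was 0.99 for HAS3 (unadjusted p = 0.0718), 0.99 for HAS2 (unadjusted p = 0.266) and 0.991 for HAS1 (unadjusted p = 0.669). No gene of 18039 passed in that fit (0%), while 718 had an unadjusted p under 0.05. The Poisson intervals of replicate 3 thus lay apart from the others for HAS2 and HAS3. Neither gene passed the test against the spread of genes at a like level. The intervals take reads as independent, which PCR copies are not, and replicate 3 was singled out after the values were seen.

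Of the hyaluronidases, HYAL1, the lysosomal enzyme that cuts hyaluronan into short oligosaccharides, had 102, 38 and 70 reads, or 12.1, 7.66 and 9.85 CPM, with a mean of 9.87 ± 2.23 CPM (SD, n = 3). HYAL2, the membrane-anchored enzyme that makes the first cuts in long chains, had 12, 10 and 8 reads, or 1.43, 2.02 and 1.13 CPM, with a mean of 1.52 ± 0.453 CPM (SD, n = 3). Replicate 1 was the highest library for HYAL1 and replicate 2 for HYAL2, and the counting intervals of the 3 libraries overlapped for both genes. The lower ends for HYAL2, 0.737, 0.966 and 0.486 CPM in replicates 1 to 3, lay below the 1 CPM that defines a measured gene. The span of HYAL2 overlaps that of TUSC2 in ARS-UCD2.0, so part of its reads may have been left unassigned or assigned to the other gene. The same limit holds for HYAL3, which overlaps NAA80. It also holds for CD44, STAB2 and HAPLN1, which overlap LOC132342358, LOC112446718 and LOC101902163. HYAL1, HYAL2 and HYAL3 lie next to each other in that assembly.

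HYAL1 led the hyaluronidase reads in every library. It supplied 73.4% of the reads of HYAL1, HYAL2 and HYAL3 in replicate 1 (exact 95% binomial interval 65.2 to 80.5%), 57.6% in replicate 2 (44.8 to 69.7%) and 65.4% in replicate 3 (55.6 to 74.4%), and these intervals overlapped. The read ratio of HYAL2 to HYAL1 was below 1 in all 3 libraries, at 0.118 (0.0589 to 0.215), 0.263 (0.117 to 0.538) and 0.114 (0.0475 to 0.238). Whether the hyaluronidase mix varied less than the synthase mix was not tested.

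CD44, the main cell surface receptor of hyaluronan, had 2777, 1896 and 2678 reads, or 329.9, 382 and 377 CPM, and a mean of 363 ± 28.7 CPM (SD, n = 3). It had 7351 of the 7986 reads of the 10 genes. Its coefficient of variation of 7.92% lay below the median of 22.4% over the 10434 genes with 10 reads or more in every library. That median is not taken at a like level, since the median mean of measured genes was 20.5 CPM. For CD44 the highest library exceeded the lowest 1.16-fold. Replicate 1 was the lowest, with a counting interval of 318 to 342 CPM that did not reach those of the other replicates, which began at 365 and 363 CPM. Many bovine CD44 transcripts are annotated, and counts per gene do not separate its splice forms. Leukocytes also carry CD44, and of 5 leukocyte markers with a row 1 was measured, CD68 (32, 9 and 33 reads), with PTPRC at 0 and summed levels of 2.02 to 6.05 CPM. Their part in the level of CD44 was not tested.

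STAB2 encodes a scavenger receptor with which sinusoidal endothelium of liver, spleen and lymph node takes up circulating hyaluronan. It had 0 reads in every library, and 3 reads, the limit that a count of 0 allows, correspond to 0.356, 0.605 and 0.422 CPM in replicates 1 to 3, for counting error only and if reads could be assigned to the gene. LYVE1, the hyaluronan receptor of lymphatic vessels, was also at 0, and STAB1 had 1, 10 and 5 reads. Of 6 endothelial and lymphatic markers with a row 2 were measured, TEK (65, 15 and 50 reads) and PECAM1 (38, 10 and 10 reads), while KDR, PROX1 and FLT4 had 0 reads, and the summed level was 5.64 to 12.2 CPM.

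Among the 3 genes of secreted binding proteins, TNFAIP6 was the 1 that was measured. It encodes TSG-6, which transfers heavy chains of inter-alpha-trypsin inhibitor onto hyaluronan and is induced by inflammatory signals. It had 168, 84 and 45 reads, or 20.0, 16.9 and 6.33 CPM, and a mean of 14.4 ± 7.15 CPM (SD, n = 3). Replicate 3 was 3.15-fold below replicate 1, and its counting interval of 4.62 to 8.47 CPM lay below those of replicate 1 (17.1 to 23.2 CPM) and replicate 2 (13.5 to 21.0 CPM). Without replicate 3 the mean was 18.5 CPM.

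HAPLN1, the link protein that clamps proteoglycans to hyaluronan and is abundant in cartilage, had 5, 3 and 2 reads, or 0.594, 0.605 and 0.281 CPM. Its 3 counting intervals overlapped. Of 4 cartilage markers with a row 0 were measured, with COL9A1 and MATN1 at 0 reads, COL2A1 at 0, 0 and 2 and COMP at 0, 4 and 1, and ACAN, the large cartilage proteoglycan that binds hyaluronan, had 9, 1 and 3 reads. The reads of TNFAIP6 were 33.6, 28 and 22.5 times those of HAPLN1 in replicates 1 to 3, with wide exact 95% intervals of 14.1 to 105, 9.26 to 139 and 5.88 to 191.

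VCAN, the gene of versican, a large chondroitin sulfate proteoglycan that binds hyaluronan and is common in the matrix of fibroblasts, was listed at 0 in all 3 libraries. Its neighbour XRCC4 on one side had 72, 28 and 26 reads in the table, HAPLN1 on the other side 5, 3 and 2, and EDIL3 beyond it 2038, 1086 and 1374. The limit of 3 reads, 0.356 to 0.605 CPM, holds for VCAN only if reads could be assigned to it. Which transcript models the counting used for VCAN is not given in the sources used here, and 58.9 to 62.0% of counted reads were assigned to no feature. A level of versican RNA can therefore not be stated from these counts, and the 4 planned read ratios with VCAN were left out.

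In the test of spread, the 3 genes with 10 reads or more in every library did not pass. The adjusted p, by the negative binomial statistic on edgeR dispersions with Benjamini-Hochberg adjustment over 10434 genes, was 1.00 for TNFAIP6 (unadjusted p = 0.0851), for HYAL1 (unadjusted p = 0.668) and for CD44 (unadjusted p = 0.866). A gene that did not pass is not shown to be stable. No gene passed in the whole table (0%), and 528 genes, or 5.06%, had an unadjusted p under 0.05. With a DESeq2 dispersion trend the count was also 0, with 437 genes at an unadjusted p under 0.05. The coefficient of variation of TNFAIP6, 49.7%, compares with 10.4% from counting error alone, and that of CD44, 7.92%, with 2.07%. The common biological coefficient of variation of the libraries was 27.3%.

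**Figure D3:**
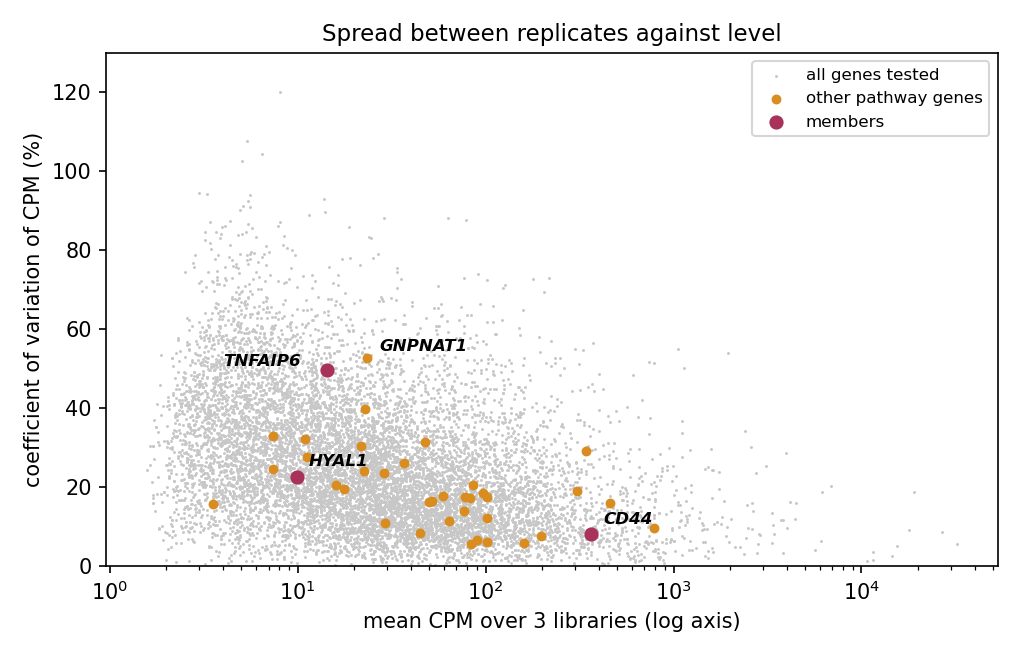
Coefficient of variation of CPM over the 3 libraries (y axis, percent) against mean CPM (log x axis) for the 10434 genes with 10 reads or more in every library (grey), with CD44, HYAL1 and TNFAIP6 in red and other genes of the pathway in orange. TNFAIP6 at 49.7% and GNPNAT1 at 52.8% stood highest among the coloured points, and CD44 was at 7.92%.

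The wider pathway was described with 6 lists of 56 genes, of which 55 had a row and 37 were measured. The share over all listed genes was the 34.6% given above. The lists were chosen with earlier results of these data known, so their share is a description only and was not tested. No pathway gene passed the test of spread.

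All 10 of 10 genes that supply the UDP-sugars were measured, with a median of 84.7 CPM. Examples are UGP2 (458 ± 72.8 CPM, SD, n = 3), which makes UDP-glucose, UGDH (198 ± 14.7 CPM), which oxidizes it to UDP-glucuronic acid, and PGM3 (161 ± 9.17 CPM), which works on the way to UDP-N-acetylglucosamine. GPI, an enzyme shared with glycolysis, stood at 101 ± 17.6 CPM. These enzymes also feed other glycans. UGDH had 1787, 908 and 1409 reads, and its reads were 68.7 times those of HAS2 in replicate 1 (exact 95% interval 46.7 to 106), 60.5 times in replicate 2 (36.5 to 109) and 470 times in replicate 3 (160 to 2280). The jump in replicate 3 lay in the 3 reads of HAS2, since UGDH itself was within 183 to 212 CPM. GNPNAT1, which acetylates glucosamine phosphate, had the largest coefficient of variation of the list at 52.8%, with 37.4, 18.3 and 14.4 CPM (unadjusted p = 0.0393, adjusted p = 0.91 by the edgeR-based test of spread).

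Of 7 further genes of depolymerization and lysosomal breakdown with a row 6 were measured, and GUSB had no row. CEMIP, which encodes a secreted protein needed for hyaluronan cleavage in skin fibroblasts, had 885, 434 and 788 reads, or 101 ± 12.2 CPM (SD, n = 3). CEMIP2, listed under its older symbol TMEM2 and encoding a related membrane protein, stood at 78.2 ± 13.6 CPM. The reads of CEMIP were 73.8, 43.4 and 98.5 times those of HYAL2 in replicates 1 to 3. HEXA, a lysosomal hydrolase gene, was at 16.0 ± 3.27 CPM. HYAL3 had 25, 18 and 29 reads, the sperm hyaluronidase gene SPAM1 26, 5 and 13, and HYAL4 was at 0. The median of the list was 16.0 CPM.

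Of 6 other receptors 2 were measured, HMMR at 22.5 ± 5.43 CPM (SD, n = 3), a hyaluronan-binding protein that is also a spindle component of dividing cells, and TLR2 at 7.41 ± 2.43 CPM, an innate receptor reported to respond to hyaluronan fragments. TLR4 had 6, 0 and 0 reads, LAYN 0, 0 and 1, and STAB1 and LYVE1 are given above. The list's median was 0.592 CPM. The reads of CD44 were 11.8 times those of HMMR in replicate 1 (exact 95% interval 10.3 to 13.5), 17.1 times in replicate 2 (14.1 to 20.9) and 22.0 times in replicate 3 (18.3 to 26.5).

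Of 16 other binding proteins 4 were measured. HAPLN3, a link protein gene of wider tissue distribution than HAPLN1, had 398, 325 and 466 reads, or 59.4 ± 10.5 CPM (SD, n = 3), while HAPLN2 had 0 reads and HAPLN4 0, 1 and 0. HABP4 (63.5 ± 7.24 CPM) and C1QBP (36.9 ± 9.61 CPM) are named for hyaluronan binding but encode largely intracellular proteins. PTX3, which encodes a pentraxin that cross-links hyaluronan in the matrix around the oocyte, stood at 11.2 ± 3.09 CPM.

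The heavy chains that TSG-6 transfers, and the light chain gene AMBP, are mainly products of liver. ITIH1, ITIH3 and AMBP had 0 reads, ITIH2 0, 1 and 0, and ITIH4 1, 4 and 3. ITIH5, whose product is made outside the liver, had 10, 26 and 5 reads. The brain proteoglycan genes NCAN and BCAN were at 0, and HABP2, a plasma protease gene, had 0, 0 and 1. The median of the list was 0.0672 CPM.

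Genes for the cleavage of versican were measured in 6 of 7 cases, beside the absence of VCAN reads. FBLN1, a matrix protein and cofactor of ADAMTS1, stood at 76.4 ± 10.6 CPM (SD, n = 3), ADAMTS5 at 29.1 ± 3.17 CPM, ADAMTS1 at 28.6 ± 6.73 CPM and ADAMTS9 at 21.7 ± 6.61 CPM. ADAMTS15 was the exception with 0 reads. All of these enzymes have further substrates. The list's median was 21.7 CPM.

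All 9 of 9 genes for partners, a ligand and proteases of CD44 were measured, with a median of 96.9 CPM. Of the proteins that tie the tail of CD44 to actin, MSN (moesin) was at 787 ± 75.2 CPM (SD, n = 3), RDX (radixin) at 342 ± 99.4 CPM and EZR (ezrin) at 306 ± 57.7 CPM. ADAM17, a protease that sheds membrane proteins including CD44, was at 102 ± 6.02 CPM. RDX was high in replicate 1, at 457 CPM against 285 CPM in each of the others, whereas EZR and MSN were lowest there, at 245 and 704 CPM.

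**Figure D4:**
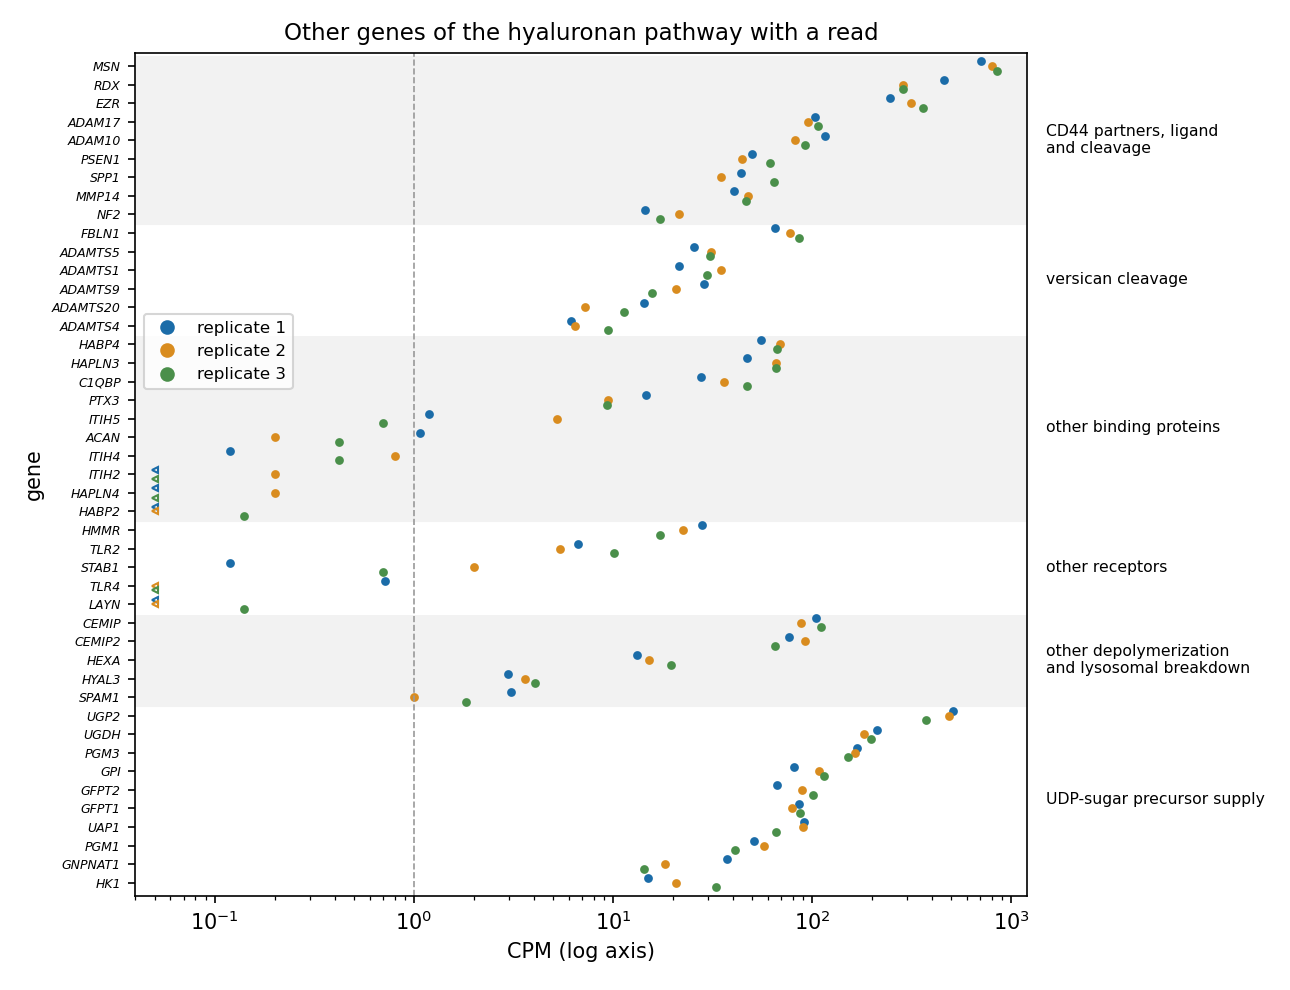
CPM (log x axis) of pathway genes with a read (y axis, grouped by list) in the 3 libraries (colours), with open triangles at the left edge for libraries with 0 reads and a dashed line at 1 CPM. All genes of UDP-sugar supply and of the CD44 list lie to the right of the line, whereas 6 of the 10 other binding proteins shown lie below it in at least 1 library.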

How the data were processed

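The authors deposited whole-number read counts per gene symbol, not normalized, for 3 libraries of total RNA. HTSeq 0.6.1, TopHat2 2.0.10 and bcl2fastq 2.18.0.12 are named in the submitters' processing notes. For the build, annotation, counting mode and strand, the setting is not given in the sources used here. Per the labels' protocols, cDNA was amplified isothermally, 500 ng entered each library, 10 PCR cycles followed, and reads were single with 100 bases. The 5 summary rows that name no gene were kept out of library sizes. Reads assigned to no feature were 58.9 to 62.0%, and those with several alignments 7.52 to 7.99%. Since counting mode and strand are not given, reads assigned to no feature may still lie within genes.

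CPM used edgeR 4.0.16 in R 4.3.3 with TMM factors of 0.978, 1.02 and 0.998. The genome-wide test of spread compared a negative binomial Pearson statistic, at edgeR's trended dispersion, with chi-square on 10434 genes. It used Benjamini-Hochberg adjustment and a threshold of 0.05. On simulated data the test missed most genes changed 2-fold in 1 replicate and many changed 4-fold. DESeq2 1.42.0 served for alternatives. Levels per length were planned, but lengths were not used here, so ratios of reads were taken within libraries for 9 of 14 planned gene pairs, leaving out pairs with VCAN or STAB2. With 3 replicates an exact sign-flip permutation gives at best p = 0.25 (two-sided), so these ratios were not tested. Overlaps and neighbours of genes were read from RefSeq names in ARS-UCD2.0, which holds all 10 symbols. All 10 genes are named. Of the other lists, the 4 highest measured genes, or all measured genes where 4 or fewer, are named with their values, and the rest by reads, except that some genes are not reported here by name; GNPNAT1 was singled out after its values were seen. The genes and lists were chosen with earlier results of these data known.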

Additional observations from a re-analysis of the deposited data

How the results depend on the processing

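No paired analysis was possible because the series has 1 group. No gene exceeded the trend of spread, and under a common edgeR dispersion 3 genes did. Leaving out each replicate in turn gave 0 to 15 such genes, 15 without replicate 1 and 1 without replicate 3. Of the 10 hyaluronan genes, 3 entered the test in 6 of the 8 alternatives tried, 5 without replicate 3 and 8 without the filter, and none of those tested passed. STAB2 and VCAN, without reads, were not tested. TNFAIP6 came nearest without replicate 1, with an adjusted p of 0.658 by the edgeR-based test (unadjusted p = 0.0116). Its adjusted p ranged up to 1.00 over the alternatives. No other setting gave any of the genes tested an unadjusted p under 0.05 among the 10. The number of the 10 genes measured was 3 to 5, and 5 without replicate 3. With other size factors no mean level of the 8 genes with reads moved by more than 0.475%. The mean log2 read ratio of TNFAIP6 to HAPLN1 was 3.78 with a pseudocount of 0.5 CPM and 4.51 with 0.1, since HAPLN1 had few reads. The mean log2 ratio of HAS2 to HAS3 was 0.78 and that of HAS3 to HAS1 0.00, with SDs of 2.33 and 1.71, so neither has a settled direction. Alternatives with coding lengths or exon lengths were not run. Depth limits all statements on the synthases, HYAL2 and HAPLN1, which rest on 10 to 44 reads each.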

Other observations

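The reads of HAS1, HAS2 and HAS3 together corresponded to 4.75, 4.23 and 3.80 CPM in replicates 1 to 3 (mean 4.26 ± 0.477, SD, n = 3), a narrower range than that of HAS2 or HAS3 alone. HAS1 alone ran from 0.422 to 1.43 CPM. The sum rests on 40, 21 and 27 reads in replicates 1 to 3 and was looked at after the values of the single genes were seen. It adds reads of genes whose transcripts may differ in length.

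Replicate 3 held the lowest CPM of 5 of the 8 hyaluronan genes with reads, HAS1, HAS2, HYAL2, TNFAIP6 and HAPLN1, and of 5 of the 10 genes of UDP-sugar supply, PGM1, UGP2, GNPNAT1, PGM3 and UAP1. Of all genes with a read 29.3% were lowest in replicate 3, and of all measured genes 34.7%. These counts were looked at after the values were seen and were not tested. For HAS1, HYAL2 and HAPLN1 the counting intervals of the 3 libraries overlapped, so their order rests on few reads. Replicate 3 held the highest CPM of 1 of the 8 hyaluronan genes, HAS3, beside 35.9% of all genes with a read. It also held the highest of 4 of the 10 genes of UDP-sugar supply, HK1, GPI, GFPT1 and GFPT2. The mesothelial marker MSLN was also highest in replicate 3 (9.03, 17.9 and 24.6 CPM in replicates 1 to 3). It did not pass the test of spread (unadjusted p = 0.0845 by the edgeR-based test). MSLN was the 1 measured gene of 8 mesothelial and epithelial markers and held most of their summed level of 10.7 to 29.0 CPM. UPK3B (2, 2 and 7 reads), KRT18 (0, 0 and 2) and CDH1 (5, 4 and 6) were also highest in replicate 3. LRRN4 (3, 13 and 4 reads), KRT8 (3, 8 and 5) and KRT19 (1, 9 and 7) were highest in replicate 2. EPCAM had 0 reads. The part of mesothelial or epithelial cells in the levels of hyaluronan genes was not tested.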
